A study of Homo sapiens with 24 samples.

Results

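The 5S ribosomal RNA genes and their dispersed copies were examined in a study of HEK293, a cell line long established from human embryonic kidney. The features are the rows of the deposited tables that carry a 5S name: 17 genes of the tandem array on chromosome 1, named RNA5S followed by a number, and 307 dispersed copies named 5S_rRNA or by the 5S family identifier. Together they make 324 of the 175946 features counted. Membership rests on names alone, so no measured value chose a feature.

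All cells were wild type and had been made to overexpress a protein. The 4 groups were eGFP (the control, GFP below), LMNA, LMNB1 and LMNB2, which encode the lamins A/C, B1 and B2 of the nuclear lamina. Each group held 3 small RNA libraries and 3 ATAC-seq libraries, 24 in all. ATAC-seq counts DNA cut by a transposase and so reports open chromatin. The labels put all small RNA libraries in batch 1 and all ATAC-seq libraries in batch 2, so the assay and the batch cannot be told apart. They give no untransfected cells, no expression vector and no statement that replicates were separate cultures, so p-values measure the spread between these libraries. The title of the series concerns RNA polymerase III, and the groups allow the question whether 5S RNA or 5S chromatin differed with a lamin.

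5S rRNA is the small RNA of the large ribosomal subunit. RNA polymerase III makes it from an internal promoter that the zinc finger protein TFIIIA recognises, and TFIIIA recruits TFIIIC and then TFIIIB. Human 5S genes lie in a tandem array on the long arm of chromosome 1. Many further copies, most of them annotated as pseudogenes, are scattered over the genome and carry mutated or shortened versions of the gene.

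Small RNA totals were 132507051 to 195074742 counts per library and ATAC-seq totals 156043245 to 290158229. The scaling factors of the small RNA libraries ran from 0.631 in GFP replicate 1 to 1.31 in GFP replicate 3, so the control group held both extremes. Of the tested small RNA features over the overexpressed genes, all 8 over LMNB2 and 3 of 5 over LMNB1 were called higher in their own group, by up to 9.77 and 7.60 (log2), and the single one over LMNA differed by -0.09. In ATAC-seq 1 of 6 windows over LMNA, 3 of 6 over LMNB1 and 2 of 8 over LMNB2 were called higher. The LMNA window, higher by 8.65, is the one check of that label and covers the ATAC-seq libraries only. The LMNA label of the small RNA libraries has no such check. Of 16 microRNA features that mark other cell types, only the pluripotency genes MIR302A, MIR302C and MIR302D were at 0 throughout. The rest, with MIR302B of the same list among them, were not. The highest, MIR142 of white cells, had a mean of 0.0127 CPM. The summed level of all 16 was 0.0172 to 0.0225 CPM (counts scaled to library size) in GFP libraries, 0.0311 to 0.0760 in those of LMNA, 0.0232 to 0.0302 for LMNB1 and 0.0284 to 0.0603 for LMNB2, and its part in the results was not tested.

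The array genes occupied chromosome 1, positions 228610243 to 228646183 (GRCh38), a span of 35941 bp. All 17 lay on the minus strand, 2215 to 2242 bp apart from start to start. Each deposited interval was 169 bp long and contained the 121 bp RefSeq gene. The dispersed copies were found on 24 chromosomes with at most 27 on any of them, 140 on the plus and 167 on the minus strand. Of these, 250 overlapped a RefSeq 5S pseudogene and are called by its RNA5SP symbol, and the other 57 keep their deposited names. Their RefSeq lengths had a median of 118 bp and ranged from 18 to 316 bp. Altogether 155 copies (50.5%) lay inside the span of a protein-coding gene, 37 only inside a lncRNA gene and 115 in neither. The nearest copy to the array, RNA5SP18, started 1703 bp beyond its end.

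Small RNA counts separated array and dispersed features by orders of magnitude. Per kilobase of interval, the array genes had a median of 2366 CPM (1018 to 2372), and the dispersed copies a median of 0.174 CPM with a highest value of 1009. No copy had a mean count above that of the lowest array gene. The mean count of the copies was 4.42 at the median: 14 were at 0 in every library, 75 had a mean under 1, 90 from 1 to under 10, 63 from 10 to under 100, 39 from 100 to under 1000, and 26 of 1000 or more. In bulk RNA, a lower level in each cell and fewer cells with the RNA cannot be told apart.

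**Figure D1:**
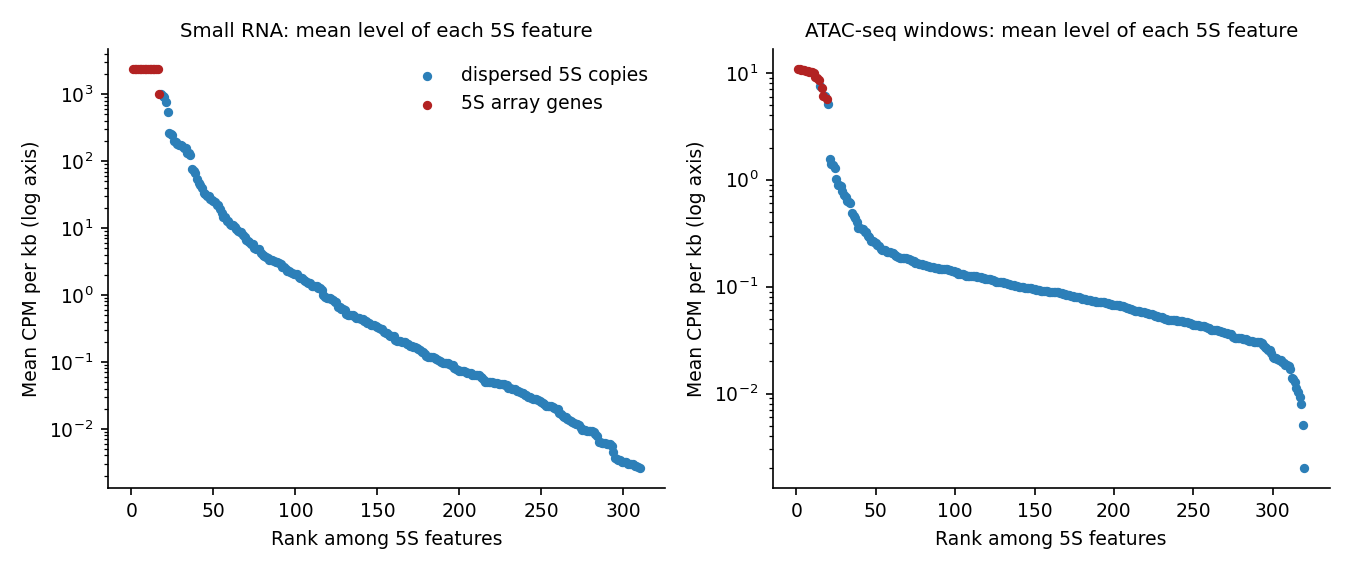
Mean CPM per kilobase (log axis) over 12 libraries for each 5S feature, ranked within the assay, for small RNA (left) and ATAC-seq windows (right); features at 0 are not drawn. The 17 array genes (red) hold the top ranks in small RNA, while in ATAC-seq 2 dispersed copies (blue) lie above the lowest array gene.

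The 16 array genes other than RNA5S9 could not be told apart by their RNA. In every library their counts lay within 1.19% of their common median. How reads that fit several genes were counted is not given, and these genes cannot be counted as independent measurements. RNA5S9 was the exception with a mean count of 26865, against 62150 to 62431 for the others. Some dispersed copies also had like counts. The 82 features with a mean of at least 100, array genes included, formed 57 distinct sets. A feature joined a set if it lay within 15% of the most abundant member in every library. Whether the members of a set share reads was not tested. RNA5SP370, RNA5SP145 and the copy in FAM234B formed a set of 3, as did RNA5SP352, RNA5SP225 and RNA5SP259. RNA5SP502, with counts close to those of the latter 3, fell in a set with RNA5SP161. Distinct sets can thus still have like counts.

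A few copies carried much of the dispersed signal, the top 5 holding 44.4 to 63.0% of all dispersed counts in a library. RNA5SP370, at positions 104125211 to 104125381 of chromosome 12 inside NFYB (a subunit of the transcription factor NF-Y), had a mean count of 25486. The copy inside FAM234B on the same chromosome (13046127 to 13046288) had 25478, and RNA5SP145 inside MED12L on chromosome 3 (151188074 to 151188248) had 25236. These 3 copies form a set with like counts. Whether the share of the top 5 counts some reads more than once was not tested. RNA5SP149 and RNA5SP141, both outside protein-coding genes on chromosome 3, followed with 19554 and 14250. The sixth, a copy named URS000063455F in the deposited table, had 6551. Copies inside protein-coding genes had a median mean count of 5.67 and the others 3.42, and the number with a mean of at least 100 was 37 of 155 inside and 28 of 152 outside. Whether reads at intragenic copies came from the host transcript was not tested.

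No array gene differed between a lamin and GFP in small RNA. For RNA5S1, the array gene highest in CPM, GFP libraries had 480, 264 and 392 CPM, LMNA libraries 615, 480 and 417, LMNB1 libraries 356, 355 and 316, and LMNB2 libraries 457, 346 and 331. The groups overlapped, since the GFP libraries spanned the whole range of LMNB1 and LMNB2 and the lowest LMNA library lay among them. The log2 fold change of RNA5S1 was 0.41 (SE 0.27) for LMNA, -0.15 (SE 0.27) for LMNB1 and -0.00 (SE 0.27) for LMNB2. The 3 comparisons share the GFP libraries. With edgeR's quasi-likelihood test, adjusted over all 33893 tested features, the lowest adjusted p of any array gene was 0.895, 0.941 and 0.580 in the same order. It was 0.455 for any difference among the 4 groups.

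Over the array the median log2 fold change was 0.42 for LMNA, -0.14 for LMNB1 and 0.00 for LMNB2, beside -0.05, -0.05 and -0.04 over all tested features. Scaling by total counts alone gave array medians of 0.46, 0.04 and 0.26, and moved the medians of all features to -0.04, 0.11 and 0.19. Without GFP replicate 2, the lowest of the controls, the LMNA median was 0.23. Without GFP replicate 1, the highest, it was 0.61.

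Of the dispersed copies, 137 passed the filter on low counts and 170 did not. None was called at an adjusted p under 0.05 for LMNA, where 0.0% of all tested features were called, or for LMNB1, where 0.0384% were. At an unadjusted p under 0.05 the edgeR test gave 8 copies for LMNA, 7 of them higher (5.46% of all features), and 14 for LMNB1, all lower (5.51%). DESeq2 called none in either comparison, and edgeR with no count filter called 4 for LMNB1. The median log2 fold change of the 137 copies was 0.24 for LMNA and -0.30 for LMNB1, and 107 and 15 of them were positive. Leaving out GFP replicate 3 changed both: 14 copies were then called for LMNA, and the LMNB1 median became 0.14. Shares of all features called in these alternative fits are not given here. The lowest p for LMNA belonged to URS00006E437A, with 0.352, 0.243 and 0.310 CPM in GFP and 0.498, 0.400 and 0.427 in LMNA (adjusted p = 0.895 in edgeR). For LMNB1 it belonged to RNA5SP273, whose GFP libraries had 0.533, 0.390 and 1.19 CPM and LMNB1 libraries 0.423, 0.288 and 0.435. Its log2 fold change of -0.88 (SE 0.33) had an adjusted p of 0.861 in edgeR.

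For LMNB2, edgeR called some 5S features. Of 137 dispersed copies 4 rose, by 0.87 to 0.90 on the log2 scale, and none fell, while 2.66% of all features were called and 1.91% were called higher. The share of copies called was thus near that of all features called. The 4 copies lie far apart: RNA5SP259 inside FZD3 (a Wnt receptor) on chromosome 8, RNA5SP225 on chromosome 6 (153420413 to 153420569), RNA5SP502 on chromosome X (41292773 to 41292929) and RNA5SP352 inside SIAE (a sialic acid esterase) on chromosome 11 (124636434 to 124636604). In every library their counts lay within 4.59% of their common mean, so they cannot be counted as independent measurements. RNA5SP259 had 19.1, 17.4 and 26.2 CPM in the GFP libraries. The LMNA libraries had 28.4, 27.7 and 24.3, those of LMNB1 21.0, 20.0 and 20.0, and those of LMNB2 35.5, 42.9 and 38.5. All 3 LMNB2 libraries lay above the other 9. Its log2 fold change against GFP was 0.90 (SE 0.21, adjusted p = 0.0351 in edgeR), and the other 3 had adjusted p of 0.0372 to 0.0396.

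The 4 stayed higher in every alternative run, with log2 fold changes from 0.74 to 1.17, but the call did not hold in all of them. Scaling by total counts, which moved the median of the 137 copies from 0.01 to 0.20, or fitting only the GFP and LMNB2 libraries, left 0 copies called, while DESeq2 called 15. Leaving out a library gave from 0 to 31 calls: 31 without GFP replicate 3, 8 without GFP replicate 1, 1 without GFP replicate 2, 4 without LMNA replicate 3, and 0 without any of the other 8. The shares of all features called in these alternative runs are not given here. At an unadjusted p under 0.05 there were 24 copies, 21 of them higher, with log2 fold changes of those 21 from 0.55 to 0.90. Over all features the share at that level was 19.9%. For any difference among the 4 groups no copy was called (1.68% of all features were). In edgeR 31 had an unadjusted p under 0.05, beside 15.9% of all features. DESeq2 called 13, and its share over all features is not given here.

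**Figure D2:**
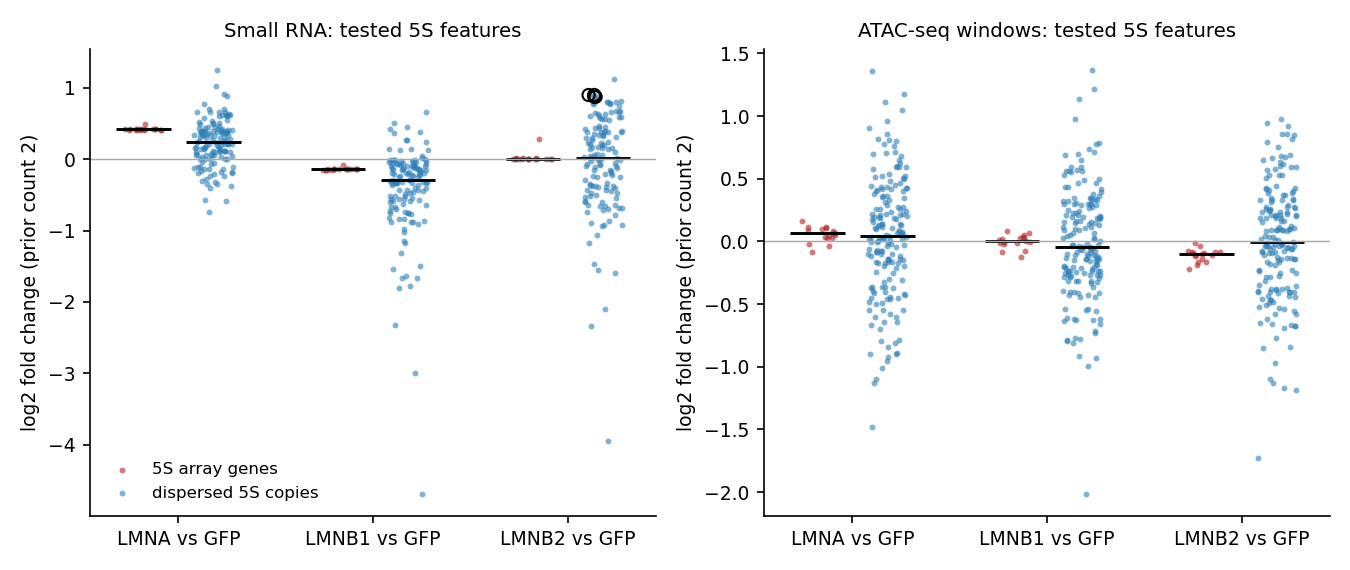
Log2 fold change against GFP (edgeR, prior count 2) of each tested 5S feature for small RNA (left) and ATAC-seq windows (right); bars are medians and rings mark an adjusted p under 0.05. The array genes move as a block in small RNA, the copies spread widely around their medians of 0.24, -0.30 and 0.01, and only 4 copies are ringed, all for LMNB2.

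A count expressed as a share of the array is free of library scaling, because both are read in the same library. Each count was therefore divided by the median of the 16 like array genes. The measure was chosen with earlier results of these data in view and is given as a description. RNA5S9 stood at 38.2, 38.9 and 43.0% of the other array genes in GFP and at 41.9, 41.4 and 42.7% in the LMNA libraries. The LMNB1 libraries were at 41.6, 43.8 and 39.5%, and those of LMNB2 at 46.9, 49.2 and 50.0%. The LMNB2 libraries lay above all others, with a mean of 48.7% ± 1.60 (SD, n = 3) against 40.0% ± 2.59 in GFP. In CPM, RNA5S9 had a log2 fold change of 0.28 (SE 0.26) for LMNB2, with an adjusted p of 0.580 in edgeR.

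Of the abundant dispersed copies, some were also higher relative to the array in LMNB2 and others overlapped GFP. RNA5SP370 stood at 38.7, 31.7 and 35.2% of an array gene in GFP and at 46.9, 46.8 and 46.7% in LMNB2. Its LMNA libraries (41.8, 39.1 and 43.3%) were also above GFP, and its LMNB1 libraries (38.2, 44.5 and 33.8%) overlapped GFP. RNA5SP149 stood at 26.9% ± 2.25 in GFP and at 37.2% ± 1.16 in LMNB2 (SD, n = 3 each), with no overlap. RNA5SP141, the fifth most abundant copy, overlapped in every group. The 4 called copies stood at 3.96 to 6.91% of an array gene in the 9 libraries outside LMNB2 and at 7.66 to 12.5% within it.

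**Figure D3:**
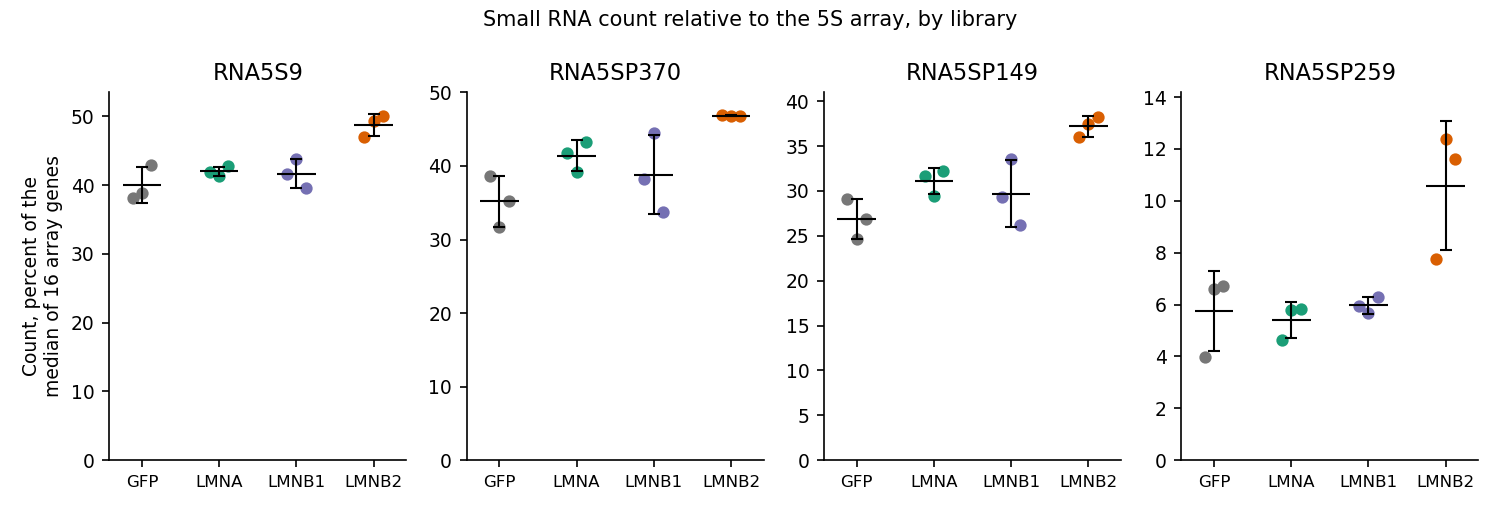
Small RNA count of RNA5S9, RNA5SP370, RNA5SP149 and RNA5SP259 as a percent of the median of the 16 like array genes; points are libraries, lines and bars the mean ± SD (n = 3). In all 4 panels the LMNB2 libraries lie above every GFP library, from 46.9 to 50.0% against 38.2 to 43.0% for RNA5S9. The 4 panels are a selection: RNA5SP259 was called higher for LMNB2 from these counts, and RNA5SP141, not drawn, overlapped GFP.

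All 3 LMNB2 libraries lay above all 3 GFP libraries in 21 of the 137 tested copies (15.3%), against 5.24% of all tested features on this measure, and all 3 below in 3 (5.27% of all features). Among the 26 copies with a mean count of at least 1000 the number was 16 (61.5%), against 5.59% of the 1984 features of that abundance. These 16 copies form 8 of the 16 distinct sets among the 26. Neither the copies nor the sets can be counted as independent, since distinct sets can have like counts. The 26 copies had a median log2 ratio to the array 0.64 above GFP in LMNB2, with 22 above, -0.03 in LMNA and 0.06 in LMNB1. The 65 copies with a mean of at least 100 had a lower median of 0.30 in LMNB2, with 47 above, and all 3 libraries lay above GFP in 18 of them, against 4.0% of the 5227 features of that abundance. Of the 26, 4 (2 distinct sets) had all LMNA libraries above GFP, beside 2.42% of features of that abundance, and none had all LMNB1 libraries above, beside 3.98%. Over all 137, for LMNA 5 copies were higher and 3 lower (0.431% and 14.9% of all features), and for LMNB1 1 and 3 (4.13% and 1.68%). In plain CPM, 21 copies also lay above GFP for LMNB2, beside 12.1% of all features, and 15 of them were shared with the 21 above. Without GFP replicate 3 the number relative to the array was 60. Fewer controls make such a separation easier, and the share of all features without that library was not computed.

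Some dispersed copies differed more between libraries of a group than between groups. These were chosen after their values were seen. Of 65 copies with a mean of at least 100, 9 departed at least 4-fold from their median over libraries, relative to the array, in some library. RNA5SP87, on chromosome 2 (22338861 to 22339028), had counts of 1, 0 and 596 in GFP and 230, 9 and 342 for LMNA, but 6, 5 and 5 for LMNB1 and 10, 11 and 8 for LMNB2. It was thus high in GFP replicate 3 and in LMNA replicates 1 and 3 only. RNA5SP403 on chromosome 16 followed the same 3 libraries, at 0.771, 0.423 and 0.545% of an array gene against 0.0230 to 0.0684% in the other 9. RNA5SP426 and RNA5SP463 were highest in GFP replicate 3 (5.98 and 3.78%) and next in LMNA replicate 3 (2.84 and 1.52%).

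RNA5SP351, inside DIXDC1 on chromosome 11, did the opposite. Its counts were 244, 316 and 7 in GFP and 395, 477 and 3 for LMNA. LMNB1 libraries had 345, 275 and 276, and LMNB2 libraries 590, 598 and 328. The copy inside TPR, which encodes a nuclear pore protein, was at 0.136% of an array gene in LMNA replicate 1 and at 0.947 to 1.80% in the other 11 libraries. The fold changes of such copies carry wide errors: RNA5SP87 had a log2 fold change of -4.70 (SE 2.01) for LMNB1, with an adjusted p of 0.861 in edgeR. Of the 65 copies, 27 were highest relative to the array in GFP replicate 3 and 23 in LMNB2 replicate 2. What set these libraries apart was not tested.

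**Figure D4:**
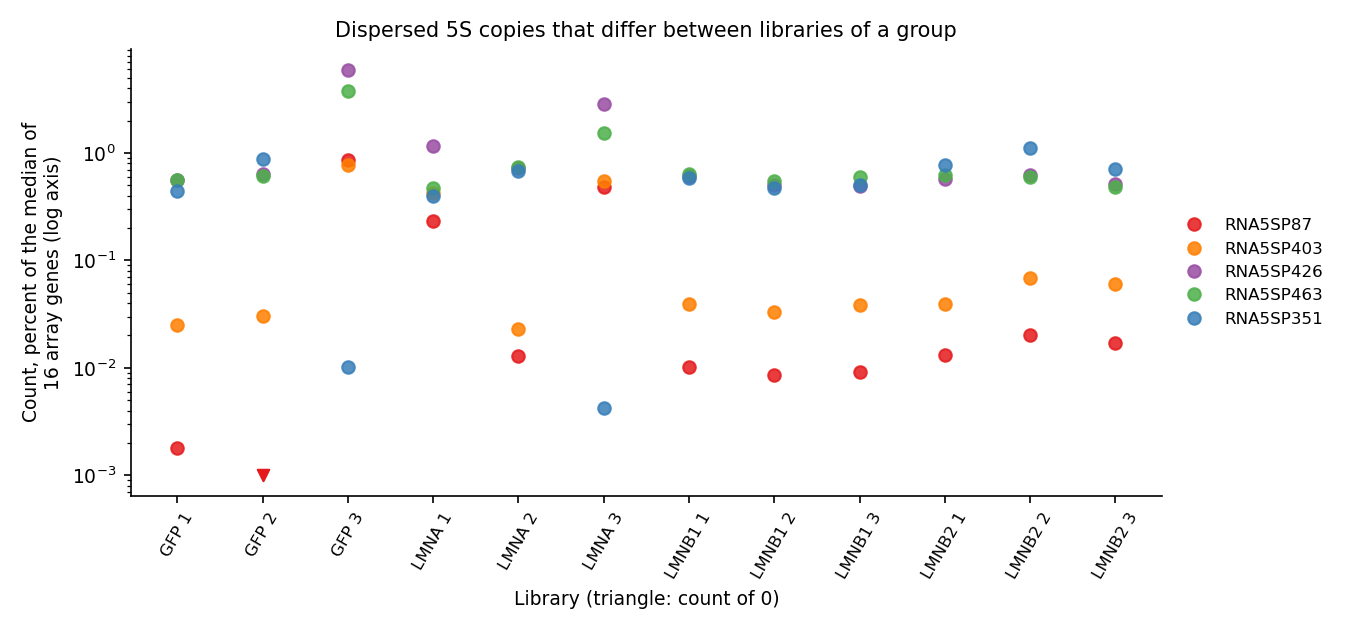
Small RNA count of 5 dispersed copies as a percent of the median of the 16 like array genes (log axis) in each of 12 libraries; a triangle marks a count of 0. RNA5SP87 and RNA5SP403 are high in GFP replicate 3 and LMNA replicates 1 and 3, where RNA5SP351 is low in GFP replicate 3 and LMNA replicate 3.

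In ATAC-seq each feature had a window reaching 125 bp beyond its interval on each side. The array windows had mean counts of 553 to 1052, a median of 10.2 CPM per kilobase of window, against 0.0837 for dispersed copies. Unlike the RNA, the windows differed along the array. RNA5S15 and RNA5S16, neighbours near its end, had means of 553 and 598, RNA5S9 had 707, RNA5S10 had the highest at 1052, and the other 13 lay from 834 to 1046. RNA5S15 had 2.72, 2.27 and 1.98 CPM in the GFP libraries and 2.47, 2.50 and 2.40 for LMNA. Values for LMNB1 were 2.66, 2.33 and 2.36, and for LMNB2 2.41, 2.22 and 2.16. RNA5S10 had 4.50, 4.77 and 4.43 CPM in GFP, and the lowest of its 12 libraries was 4.13, above every value of RNA5S15. The counting of reads shared by repeats is not given in the sources used here, and its part in these differences was not tested.

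**Figure D5:**
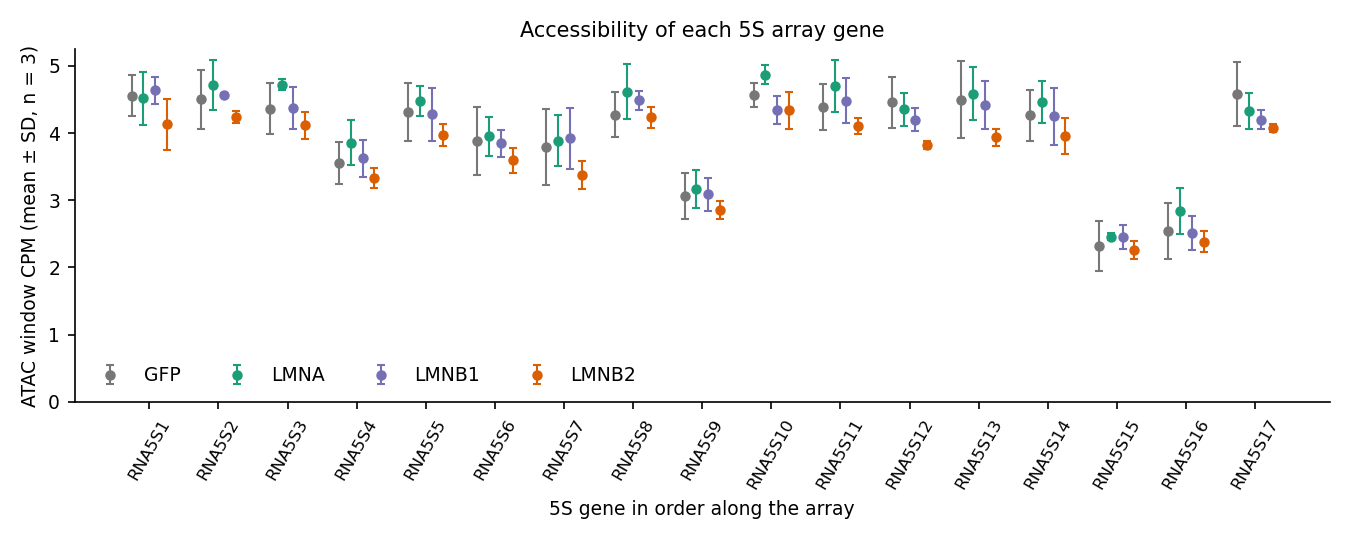
ATAC-seq CPM of the window on each array gene (mean ± SD, n = 3 libraries a group), in order along the array. RNA5S9, and the adjacent pair RNA5S15 and RNA5S16, are lower than the genes on either side in all 4 groups, and the groups differ by less than these genes do.

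All 17 array windows were denser in reads than the 500 bp beside them, by 3.95-fold at the median (1.99 to 6.79). Against 50000 bp flanks the median was 7.47. The 5000 bp flanks, which hold other array genes, gave 3.07. Dispersed copies had medians of 1.19, 1.16 and 0.876 against flanks of 500, 5000 and 50000 bp, and 78 of 306 with a value were at least 2-fold denser than their 500 bp flanks. RNA5SP149, RNA5SP370, RNA5SP21 and RNA5SP145 had the highest such ratios at 48.5, 32.2, 27.7 and 26.0, and 3 of these 4 were also among the most abundant copies in small RNA; they were picked after their values were seen.

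Only 7 dispersed copies had an ATAC-seq mean of at least 100, and 2 of them also had a small RNA mean of at least 1000. RNA5SP283 on chromosome 9 (62802295 to 62802463) had 734, RNA5SP18 beside the array 597, RNA5SP21 inside MIGA1 on chromosome 1 472, RNA5SP155 inside WDR1 158, RNA5SP370 139 and the FAM234B copy 132. The small RNA means of the first 4 of these were 70.8, 0.250, 50.4 and 0.833. Among these windows with high counts were thus copies with almost no RNA. Against its 500 bp flanks, the RNA5SP18 window had a read density ratio of 15.1, and the RNA5SP155 window one of 0.579. Over all copies the 26 with small RNA means of at least 1000 had the higher median ATAC-seq mean, 16.6, and the 89 with means under 1 had 6.75. Spearman's rho between the means was 0.26 over the 307 copies, which share libraries and may share reads.

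No 5S feature was called in ATAC-seq. Calls over all 163786 tested windows made up 0.000611% for LMNA, 0.00305% for LMNB1, 0.00244% for LMNB2 and 0.0421% for any difference among the groups. Over the array the median log2 fold change was 0.06, 0.00 and -0.10 for LMNA, LMNB1 and LMNB2, and over the 176 tested copies 0.04, -0.05 and -0.01, where all windows had 0.00 each. Scaling by total counts alone gave array medians of 0.15, 0.19 and 0.01, as the medians of all windows moved to 0.09, 0.19 and 0.11.

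For LMNB2 all 17 array genes had a negative fold change, and 2 had an unadjusted p under 0.05 in edgeR, beside 5.72% of all windows. With total counts as the scaling, 9 were positive and 8 negative, with 0 at that p. Without GFP replicate 1, 3 were positive and 0 were at that p, and without GFP replicate 3 it was 7. The windows cannot be counted as independent. Sets of 7, 4 and 2 genes had counts within 15% of their most abundant gene in every library. Whether the genes of a set share reads was not tested. RNA5S12 had the lowest p of these, with 4.85, 4.44 and 4.09 CPM in GFP and 3.89, 3.82 and 3.76 in LMNB2. It was the only array gene whose LMNB2 libraries all lay below GFP (4.72% of all windows were lower in this way). The fold change was -0.22 on the log2 scale (SE 0.08; edgeR adjusted p = 0.860).

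Among the copies 7, 5 and 5 of 176 had an unadjusted p under 0.05 for LMNA, LMNB1 and LMNB2 in edgeR, beside 5.19, 4.78 and 5.72% of all windows, and DESeq2 called none. GFP and lamin libraries did not overlap for 17, 12 and 21 copies (9.66, 6.82 and 11.9%), near the 9.55, 8.46 and 10.3% of all windows. RNA5SP57 had the largest fold change, -2.02 (SE 0.60) for LMNB1 with an adjusted p of 0.978 in edgeR, from counts of 9, 2 and 16 in GFP and 0, 3 and 2 in LMNB1. The 4 copies called higher in small RNA for LMNB2 had ATAC-seq log2 fold changes of 0.41 (SE 0.41) for RNA5SP259, -0.54 (SE 0.45) for RNA5SP225, -0.67 (SE 0.51) for RNA5SP502 and -1.10 (SE 0.48) for RNA5SP352. RNA5SP352 had ATAC-seq counts of 11, 6 and 10 in GFP and 6, 4 and 6 in LMNB2, and an adjusted p of 0.862 in edgeR.

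Other ribosomal RNA and Pol III genes give the setting. None of 19 tested features of the other ribosomal RNAs and none of 18 other Pol III genes (7SL, 7SK, RMRP, RPPH1, U6, Y and vault RNAs, BCYRN1) were called in small RNA for any lamin. Of 504 tested nuclear tRNA features 3 were lower for LMNB2, and none was called for LMNA or LMNB1. The unadjusted edgeR p was under 0.05 for 0, 0 and 3 ribosomal, 2, 0 and 5 other Pol III and 66, 43 and 90 tRNA features for LMNA, LMNB1 and LMNB2. Their median log2 fold changes for LMNB2 were 0.48 for other ribosomal RNA, 0.01 for other Pol III genes and -0.19 for tRNA. In ATAC-seq none of these lists had a call. Their LMNB2 medians were -0.12, -0.04 and -0.09 in the same order, beside the -0.10 of the 5S array, and 9 of 21, 2 of 18 and 68 of 557 features had an unadjusted edgeR p under 0.05. For LMNA those numbers were 1, 0 and 23, and for LMNB1 2, 0 and 19.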

How the data were processed

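Small RNA and ATAC-seq were measured in 12 HEK293 libraries each, 3 per group. The authors deposited raw counts for each feature and ATAC-seq window, whole numbers whose totals differ between libraries, per the values. The build is GRCh38, per the submitters' processing notes. The aligner, counting tool, strand and handling of repeated or duplicate reads are not given in the sources used here, and near-identical copies may share reads. Positions are counted from 1. Names, gene spans and lengths come from RefSeq (GRCh38.p14).

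All 12 libraries of an assay were fitted together with edgeR 4.0.16 (R 4.3.3): filterByExpr, TMM scaling, a mean per group, robust quasi-likelihood, Benjamini-Hochberg adjustment over all tested features, calls at an adjusted p under 0.05. The script was tested on simulated data. Fold changes use a prior count of 2. DESeq2 1.42.0, other scalings, other filters, a replicate block and leaving out each library were alternatives. Named features were the array genes lowest and highest in CPM and lowest in p, the 6 dispersed copies highest in CPM, the 2 lowest in p per contrast, and every call. Others are said to be chosen after their values were seen. Members and lists were chosen with earlier results of these data known.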

Additional observations from a re-analysis of the deposited data

Results flagged for a closer look

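In small RNA, the median level of the 17 array genes relative to GFP was above the GFP mean in every LMNA library (0.19 to 0.74 on the log2 scale) and below it in every LMNB1 library (-0.20 to -0.05). The group means were 0.44 ± 0.28 and -0.10 ± 0.09 (SD, n = 3), a difference of 0.5417. The GFP libraries ranged from -0.48 to 0.38. The same held for the dispersed copies, with means of 0.36 ± 0.12 and -0.16 ± 0.07 and a difference of 0.5241, where the GFP libraries ranged from -0.60 to 0.57. The difference between the 2 lamins was not tested by itself. In the edgeR test of any difference among the 4 groups, the lowest adjusted p was 0.455 for an array gene and 0.0502 for a dispersed copy. That copy was RNA5SP259, whose largest log2 fold change against GFP was for LMNB2, at 0.90. For LMNA it was 0.36 and for LMNB1 -0.04.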

How the results depend on the processing

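The number of 5S features called for LMNB2 in small RNA, 4, depended on the processing. It was 0 with total counts as the scaling, with only the compared libraries fitted or at an adjusted p under 0.01. It was 15 with the DESeq2 test, 18 with lncRNA features left out and 19 with no count filter. With no count filter 4 copies were called for LMNB1, and 37 for any difference among the groups. The latter number was 2 at a mean of at least 10 counts, 15 without lncRNA features and 13 with DESeq2. Leaving out each library gave 0 to 31 calls for LMNB2, 0 to 14 for LMNA and 0 to 53 for any difference, the highest each time without GFP replicate 3. The shares of all features called in these alternative fits are not given here, so the counts cannot be read as particular to 5S features. The cause of the differences between fits was not tested.

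With each library left out in turn, the small RNA array medians ranged from 0.23 to 0.61 for LMNA, -0.34 to 0.06 for LMNB1 and -0.20 to 0.20 for LMNB2. Those of the dispersed copies ranged from -0.029 to 0.68, -0.56 to 0.14 and -0.27 to 0.48. Over the other alternatives the small RNA array median for LMNB2 reached 0.26. In ATAC-seq, again with a library left out, the array medians ranged from -0.02 to 0.13, -0.06 to 0.08 and -0.17 to -0.04. The dispersed medians there ranged from -0.00 to 0.08, -0.072 to 0.040 and -0.032 to 0.051. Total counts as the scaling moved ATAC-seq medians to 0.19 (LMNB1) and 0.0074 (LMNB2) for the array and to 0.13, 0.13 and 0.10 for dispersed copies. With no count filter the dispersed LMNB1 median was -0.090. Single array genes changed sign for LMNB1: RNA5S15 in small RNA to 0.034 with total counts and 0.053 without GFP replicate 1, and RNA5S17 in ATAC-seq to 0.064 with total counts.

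Relative to the array, a single copy per near-identical set left 13 tested copies above GFP for LMNB2 and 8 of those with a mean of at least 1000. Leaving out a GFP or LMNB2 library gave 22 to 60 and 16 to 20, and the shares of all features without those libraries were not computed. These alternatives were chosen after seeing the data.

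With the replicate number as a block, 2 copies were called for LMNB2 and no other count of calls changed. Same-numbered GFP and lamin libraries had correlated deviations of -0.18 to 0.60 in small RNA (over 0.1 in 7 of 9 pairs) and -0.05 to 0.17 in ATAC-seq (3 of 9), and 6 of 9 lamin libraries in each assay were closest to the control of their own number. In small RNA most same-numbered libraries thus deviated together, with a median correlation of 0.27 against -0.21 for other numbers. All correlations were over 0.1 only for LMNA in small RNA, where the block left the number of calls at 0. For LMNB2 in small RNA they were 0.06, 0.49 and 0.21. The labels do not say that a number marks a shared culture or day, and the fit without the block was kept.

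With 3 libraries a group, a fold change such as that of the array for LMNA, 0.42 with an SE near 0.27, could not be told from no change. In small RNA, 170 of 307 dispersed copies had too few counts to be tested.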
